A study of Mus musculus with 8 samples.

Results

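Genes that report the output of the ERK kinase cascade were described on 8 arrays of 2 mouse cell lines into which PGC7, also called Stella or Dppa3, had been transferred. The set holds 10 genes: the ETS transcription factors Etv4 and Etv5, the Sprouty genes Spry1, Spry2 and Spry4, Spred1, the phosphatase genes Dusp4 and Dusp6, the cyclin gene Ccnd1 and the receptor inhibitor gene Lrig1. All probe sets annotated to exactly 1 of these symbols were taken, which gave 28 of the 45101 probe sets. The set was picked because Etv5, Ccnd1 and Lrig1 had moved in opposite directions in the 2 lines. The changes from the control are therefore given as a description for all 10 genes, no p-value is given for them, and nothing is read from whether a probe set passed the threshold.

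B16F10 is a mouse melanoma line and NIH3T3 a mouse embryonic fibroblast line. The groups were B16F10 with PGC7 (clones 1, 2 and 3), B16F10 control (1 array), NIH3T3 with PGC7 (clone 1, clone 2 and an uncloned mixture of infected cells) and NIH3T3 control (1 array). PGC7 was brought in by overnight infection with virus in the presence of polybrene. Whether the controls were infected too is not stated in the labels. The genotype label of all 6 infected samples reads PGC8 and pre-cloned, so the titles were used to form the groups. A clone grows from few founder cells, and the lone control of a line has no spread of its own, so a difference between a control and its clones also holds any difference between founders.

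Receptor tyrosine kinases at the cell surface pass a growth signal through adaptors to Ras, then through the kinases Raf and MEK to ERK. ERK activates transcription factors, and among its target genes are inhibitors of the same cascade, so the RNA of these targets is widely used to read how active the cascade is. Cyclin D1 links the signal to the cell cycle by activating the kinases Cdk4 and Cdk6. In melanoma the cascade is known as a driver of growth.

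Signals below are in arbitrary units after each array was scaled to a trimmed mean of 500, and changes are on the log2(signal + 9) scale, which understates the change of dim probe sets. A probe set was tested if its mean reached the median of all values, a signal of 49.3, in at least 1 line. Of the 28 member probe sets 26 passed, 16 in both lines and 10 through NIH3T3 alone. The remaining 2, both of Spred1, had signals of 0.376 to 44.6 on all arrays and are not described further. "Called" means an adjusted p under 0.05 in limma's moderated test over all 25236 tested probe sets, after Benjamini-Hochberg adjustment.

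The arrays went with their line labels. Correlations across tested probe sets were 0.679 to 0.698 between lines, 0.970 to 0.977 between B16F10 clones and their control, and 0.912 to 0.920 between NIH3T3 PGC7 arrays and their control. The summed signal of 7 melanocyte markers was 117417 to 135098 in B16F10 clones and 104710.0 in their control, and 624 to 676 in NIH3T3 PGC7 arrays and 768 in their control. The sum of 5 fibroblast markers was 499 to 811 in B16F10 clones and 628 in their control, and 70433 to 79975 in NIH3T3 PGC7 arrays and 83232 in their control. The sums of leukocyte (3 genes), endothelial (3) and epithelial (4) markers were at most 257, 102 and 269 on any array. Dppa3 itself had 70.0, 117 and 71.0 in clones 1, 2 and 3, against 23.5 in the control of B16F10, and 29.7, 55.4 and 101 in clone 1, clone 2 and the uncloned culture, against 69.8 in the control of NIH3T3. It was not called in B16F10 (log2 1.51 ± 0.58, SE, limma adjusted p = 0.270) or in NIH3T3 (-0.28 ± 0.58, adjusted p = 0.802). Whether its probe set can bind the transferred sequence is not known here.

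Promoter sequences were available for 6 of the 10 genes from RefSeq (GRCm38.p6), in windows of 300 bases from 250 before to 50 after a gene start, read 5′ to 3′ on the strand of the gene. The windows of Etv5 and Lrig1 are shown because these genes (Lrig1 at 1 dim probe set) differed in direction between the lines, and that of Spry1 because it differed the other way round. Capitals mark the GC box, the letters GGGCGG or their reverse complement, to which SP1 can bind. Etv5 lies at chr16:22439521-22439820 (minus strand), Lrig1 at chr6:94700096-94700395 (minus strand) and Spry1 at chr3:37639697-37639996 (plus strand).
Etv5: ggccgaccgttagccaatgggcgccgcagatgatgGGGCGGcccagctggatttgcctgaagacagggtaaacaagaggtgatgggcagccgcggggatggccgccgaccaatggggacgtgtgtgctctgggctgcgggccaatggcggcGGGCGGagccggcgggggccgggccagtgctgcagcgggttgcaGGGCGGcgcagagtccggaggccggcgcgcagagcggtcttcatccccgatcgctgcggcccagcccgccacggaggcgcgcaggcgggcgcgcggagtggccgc
Lrig1: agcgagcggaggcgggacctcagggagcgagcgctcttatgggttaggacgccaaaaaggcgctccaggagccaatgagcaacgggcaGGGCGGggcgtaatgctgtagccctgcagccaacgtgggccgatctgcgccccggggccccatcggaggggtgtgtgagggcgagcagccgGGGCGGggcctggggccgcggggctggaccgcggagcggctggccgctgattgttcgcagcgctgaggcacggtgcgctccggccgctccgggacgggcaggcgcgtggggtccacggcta
Spry1: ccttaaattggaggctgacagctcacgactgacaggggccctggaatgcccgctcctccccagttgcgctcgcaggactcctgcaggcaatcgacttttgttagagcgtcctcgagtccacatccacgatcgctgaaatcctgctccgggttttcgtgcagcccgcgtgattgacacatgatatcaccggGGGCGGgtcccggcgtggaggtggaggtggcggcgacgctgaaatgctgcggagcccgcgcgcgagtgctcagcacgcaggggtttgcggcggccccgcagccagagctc

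The GC box stood 3 times in the Etv5 window, 2 times in that of Lrig1 and 1 time in that of Spry1, and so in windows of genes of both directions. Across all 7 member windows (Etv5 has a second start) 4 held it, against 35.7% of all 32851 windows. The member windows had 57.3% to 74.0% G and C, against a median of 52.7% over all windows. Of 4 other motifs searched on both strands, the ETS core CCGGAA was found in the Spry2 window alone, against 14.9% of all windows. The AP-1 motif TGANTCA (7.81% of all windows), the cAMP response element TGACGTCA (1.79%) and the E-box CACGTG (7.15%) were in 0 of the 7. These matches describe letters in a short window and say nothing of binding.

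Most of the 10 genes were lower than the control in B16F10 clones and higher than the control in NIH3T3 PGC7 arrays. In B16F10, 20 of the 26 tested probe sets had all 3 clones below the control, and 2 had all 3 above, where 32.2% and 37.0% of all tested probe sets did so. In NIH3T3, 24 of the 26 had all 3 PGC7 arrays above the control and 1 had all 3 below, where 28.9% and 38.3% of all did so. Below in B16F10 and above in NIH3T3 were 20 of the 26, where 8.59% of all tested probe sets were, and the reverse pattern held for 1, where 13.0% of all were. The median change of the 26 was -0.39 in B16F10 and 1.46 in NIH3T3, beside 0.02 and -0.07 for all tested probe sets. Since the set was picked on these contrasts, nothing is read from these shares.

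**Figure D1:**
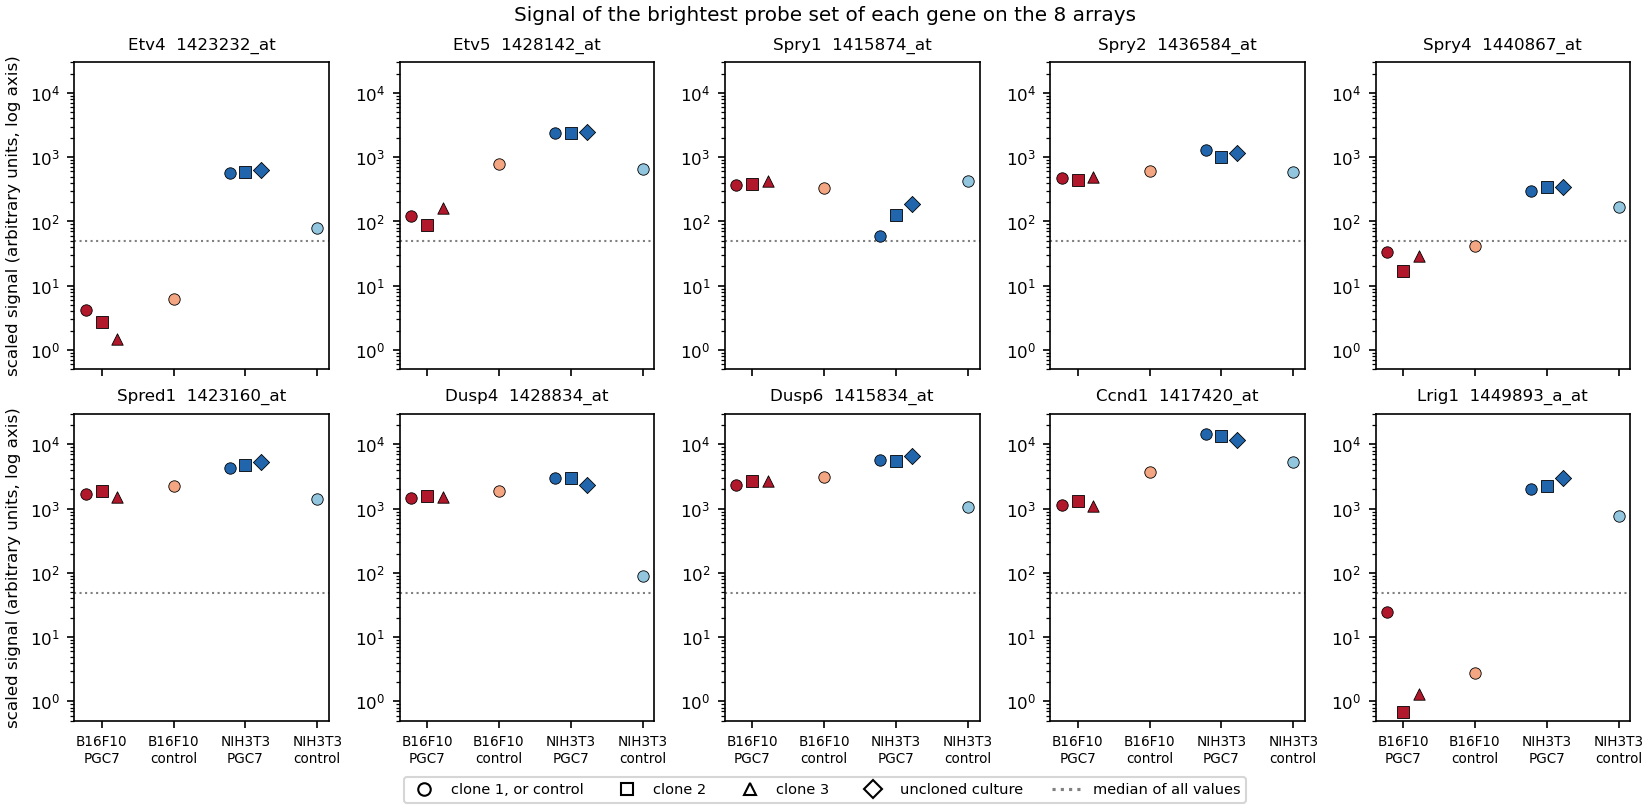
Scaled signal (arbitrary units, log axis) of the brightest probe set of each of the 10 genes on the 8 arrays, with PGC7 arrays left of the control of their line and the median of all values, 49.3, as a dotted line. Etv4, Spry4 and Lrig1 lie below that line on all B16F10 arrays, and Spry1 alone is below its control in all NIH3T3 PGC7 arrays.

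In B16F10, 5 of the 26 were called lower and 0 higher, where 0.265% and 0.923% of all tested probe sets were called (9 of the 26 had an unadjusted p under 0.05). In NIH3T3, 17 were called higher and 1 lower, where 6.47% and 6.32% of all were called. Called lower in B16F10 and higher in NIH3T3 were 14 probe sets in all (0.0555% of those tested), and 5 of these 14 belonged to the set: all 3 probe sets of Ccnd1 and 1 each of Etv5 and Lrig1. The genes of the other named ones were Oaf, Mtap with 2 probe sets, Niban2, Tm4sf1 and Odc1, coding for ornithine decarboxylase. Another 3 had no single gene symbol here (none or several). The set was picked on these contrasts, and 10 of its probe sets passed the filter through NIH3T3 alone, so nothing is read from these counts.

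Etv5 and Etv4 are ETS transcription factors of the PEA3 group, whose RNA follows ERK activity in many cells. In B16F10 the brightest Etv5 probe set, 1428142_at, had signals of 122, 88.8 and 159.6 in clones 1, 2 and 3, against 784 in the control. In NIH3T3 the same probe set had 2409, 2381 and 2506 in clone 1, clone 2 and the uncloned culture, against 644 in the control. At this probe set the scaled control signals of the 2 lines were close to each other (log2 difference 0.28), but not as deposited (1.74). No PGC7 array overlapped its control in either direction. The log2 change was -2.62 ± 0.27 in B16F10 and 1.90 ± 0.27 in NIH3T3 (SE from the limma fit, 3 PGC7 arrays and 1 control a line).

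Both other Etv5 probe sets moved the same way on a dimmer scale. Probe set 1420998_at had 17.7, 7.59 and 15.6 in clones 1, 2 and 3, against 45.5 in the control of B16F10, and 1272, 1322 and 1164 in clone 1, clone 2 and the uncloned culture, against 315 in the control of NIH3T3. Probe set 1450082_s_at had 16, 1.20 and 26.9 in clones 1, 2 and 3, against 50.5 in the control of B16F10, and 1305, 1452 and 1152 in clone 1, clone 2 and the uncloned culture, against 169 in the control of NIH3T3. In B16F10 their clones lie at signals under 30, below the median of all values, so only 1428142_at measured Etv5 above that median in all B16F10 arrays. The log2 changes were -1.30 ± 0.33 and -1.51 ± 0.59 in B16F10, and 1.96 ± 0.33 and 2.88 ± 0.59 in NIH3T3.

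Etv4 was seen in NIH3T3 only at a level above the median signal. Its brightest probe set, 1423232_at, had 563, 580.2 and 641 in clone 1, clone 2 and the uncloned culture, against 80.3 in the control, and the 3 PGC7 arrays lay within a narrow range (log2 change 2.75 ± 0.36). In B16F10 it had 4.19, 2.78 and 1.51 in clones 1, 2 and 3, against 6.31 in the control, dim on every array, so no change can be read there. Probe set 1443381_at had 104 to 163 against 55.0 in NIH3T3 (1.15 ± 0.64) and 2.05 to 25.3 against 25 in B16F10 (-0.64 ± 0.64).

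Ccnd1 codes for cyclin D1, which pairs with Cdk4 and Cdk6 to start the passage through G1. In B16F10 its brightest probe set, 1417420_at, had 1141, 1321 and 1083 in clones 1, 2 and 3, against 3707 in the control. In NIH3T3 it had 14486, 13711 and 11827 in clone 1, clone 2 and the uncloned culture, against 5252 in the control. All clones of B16F10 lay below their control and all PGC7 arrays of NIH3T3 above theirs, at signals far above the median of all values in both lines. The log2 change was -1.65 ± 0.15 in B16F10 and 1.34 ± 0.15 in NIH3T3.

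The other Ccnd1 probe sets repeated this. Probe set 1448698_at had 793, 865 and 667 in clones 1, 2 and 3, against 2458 in the control of B16F10, and 15562, 14518 and 11610.5 in clone 1, clone 2 and the uncloned culture, against 4745 in the control of NIH3T3. Probe set 1417419_at had 675, 695 and 627 in clones 1, 2 and 3, against 1453 in the control of B16F10, and 10125, 8024 and 8461 in clone 1, clone 2 and the uncloned culture, against 3391 in the control of NIH3T3. Changes were -1.66 ± 0.19 and -1.12 ± 0.15 in B16F10, and 1.54 ± 0.19 and 1.38 ± 0.15 in NIH3T3. Over 14 alternative ways of processing, each of the 6 Ccnd1 values and each of the 6 Etv5 values kept its direction. Every PGC7 array already lay on the same side of its control, so only alternatives that rescale the arrays could have turned them. The genes were also picked for these directions, so nothing is read from this.

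Lrig1 codes for a membrane protein that restrains ErbB and Met receptors. Its 3 probe sets differed in what they showed. In NIH3T3 probe set 1449893_a_at had 1986, 2264 and 2959 in clone 1, clone 2 and the uncloned culture, against 775 in the control (log2 1.60 ± 0.64). Probe set 1434210_s_at had 1696, 2082 and 2718 in clone 1, clone 2 and the uncloned culture, against 525 in the control (2.00 ± 0.32). Both placed the 3 PGC7 arrays above the control, the uncloned culture highest.

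In B16F10 both of these probe sets were dim on all arrays. Probe set 1434210_s_at had 2.29, 2.20 and 2.13 in clones 1, 2 and 3, against 33.4 in the control, which gave a log2 change of -1.92 ± 0.32. All of these signals are below 49.3, and the size of the change went from -3.43 with a pseudocount of 1 to -0.94 with 32. The brightest probe set, 1449893_a_at, had 24.5, 0.684 and 1.31 in clones 1, 2 and 3, against 2.77 in the control, with clone 1 above the control and the others below it (0.35 ± 0.64). Probe set 1419928_at had 34.0 to 84.8 against 68.4 in B16F10 and 37.3 to 90.0 against 49.5 in NIH3T3, and PGC7 and control arrays overlapped in both lines. The opposite directions of Lrig1 therefore rest on 1 probe set with dim B16F10 signals.

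**Figure D2:**
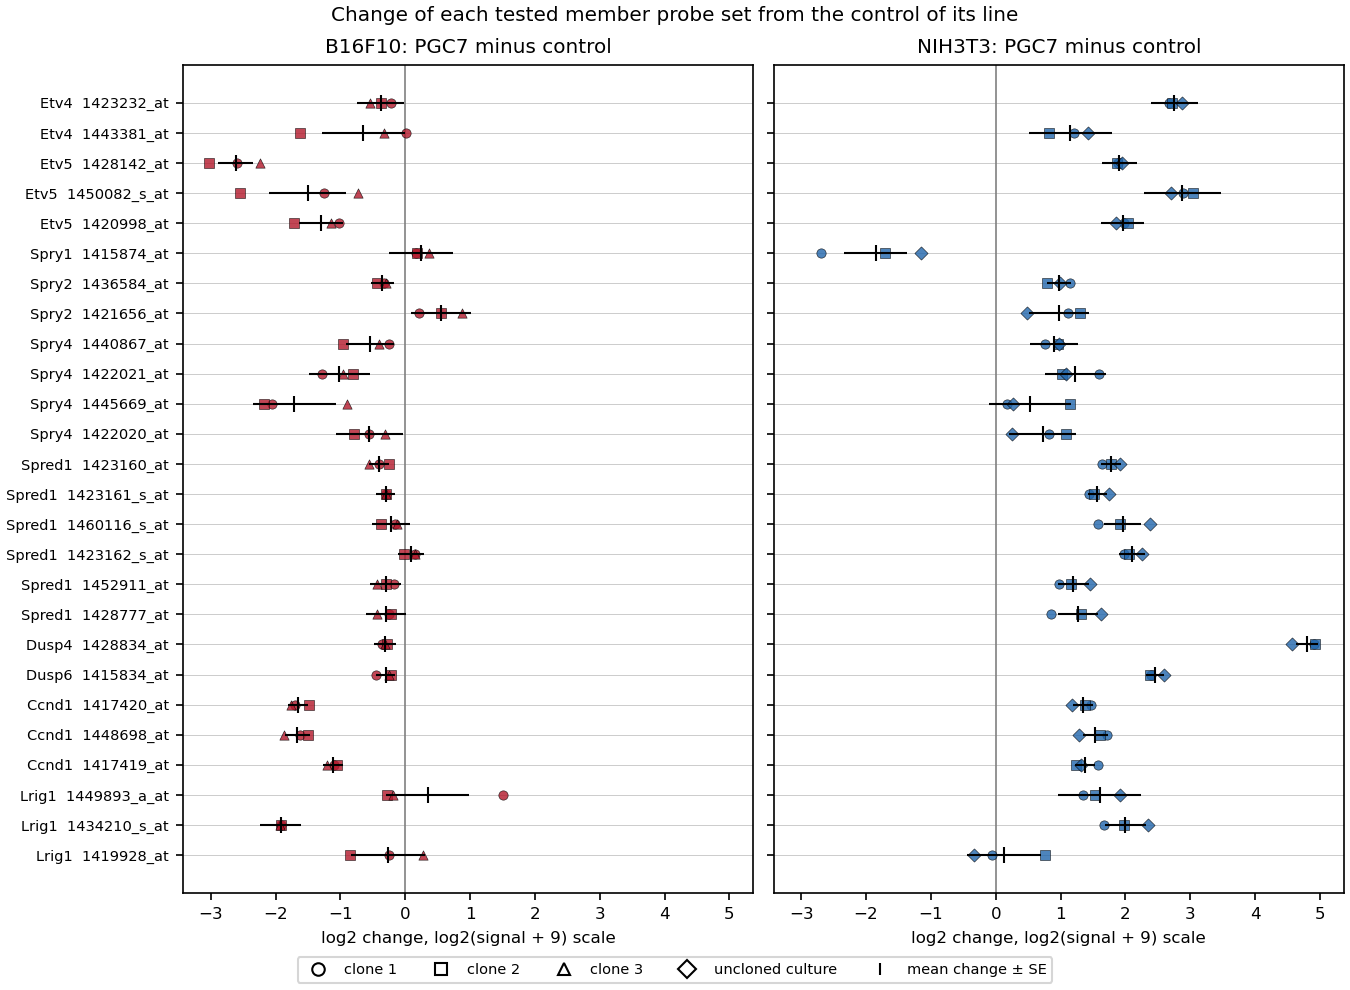
Change of the 26 tested probe sets from the control of their line (log2(signal + 9) scale), B16F10 left and NIH3T3 right, with a symbol for each PGC7 array and a tick for the mean change with its SE. Etv5 and Ccnd1 stand left of 0 in B16F10 and right of 0 in NIH3T3 on all arrays, while Dusp4 and Dusp6 in B16F10 lie close to 0, at -0.31 and -0.30.

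Dusp6 and Dusp4 code for phosphatases that remove the activating phosphates from ERK, Dusp6 in the cytoplasm and Dusp4 in the nucleus. Dusp4 (1428834_at) had 1483, 1562 and 1528 in clones 1, 2 and 3, against 1897 in the control of B16F10, and 2968, 2983 and 2340.3 in clone 1, clone 2 and the uncloned culture, against 89.9 in the control of NIH3T3. The NIH3T3 control was 30.8-fold below the mean of its PGC7 arrays and was the lowest array of all 8. Dusp6 (1415834_at) had 2306, 2695 and 2649 in clones 1, 2 and 3, against 3138 in the control of B16F10, and 5658, 5592 and 6523 in clone 1, clone 2 and the uncloned culture, against 1069.9 in the control of NIH3T3. The changes in NIH3T3 were 4.80 ± 0.17 for Dusp4 and 2.46 ± 0.14 for Dusp6. In B16F10 they were -0.31 ± 0.17 and -0.30 ± 0.14.

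Spred1 codes for a membrane protein that brings neurofibromin to Ras and so slows the cascade. Its brightest probe set, 1423160_at, had 1693, 1868 and 1515 in clones 1, 2 and 3, against 2232 in the control of B16F10, and 4331, 4818 and 5278 in clone 1, clone 2 and the uncloned culture, against 1392 in the control of NIH3T3. The 6 tested probe sets were higher in all 3 NIH3T3 PGC7 arrays, with changes of 1.20 to 2.10. In B16F10 their changes were -0.40 to 0.09, with all clones below the control for 5 of them and an overlap for 1423162_s_at.

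The Sprouty proteins act between the receptors and Raf. Spry2 (1436584_at) had 478, 444 and 486 in clones 1, 2 and 3, against 601 in the control of B16F10, and 1308, 1025 and 1171 in clone 1, clone 2 and the uncloned culture, against 587 in the control of NIH3T3. Its changes were -0.35 ± 0.18 in B16F10 and 0.97 ± 0.18 in NIH3T3. A dimmer Spry2 probe set, 1421656_at, disagreed in B16F10, where all clones were above the control (45.8 to 78.1 against 38.4, 0.55 ± 0.46), and had 51.3 to 97.1 against 34.0 in NIH3T3 (0.97 ± 0.46).

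Spry4 (1440867_at) had 33.5, 16.9 and 29.2 in clones 1, 2 and 3, against 41.6 in the control of B16F10, and 296, 339 and 342 in clone 1, clone 2 and the uncloned culture, against 170.3 in the control of NIH3T3. Its 4 probe sets had changes of 0.53 to 1.23 in NIH3T3, where every PGC7 array was above the control at each. In B16F10 the 4 were at signals under 50 on all arrays, with changes of -1.71 to -0.54 on that dim scale.

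Spry1 went the other way from Spry2 (1436584_at) and Spry4, the other Sprouty genes of the set. Its probe set 1415874_at had 372, 379.6 and 432 in clones 1, 2 and 3, against 332 in the control of B16F10, and 59.1, 125 and 189 in clone 1, clone 2 and the uncloned culture, against 432 in the control of NIH3T3. The NIH3T3 PGC7 arrays were all below the control and differed among themselves, clone 1 lowest and the uncloned culture highest. The change was 0.24 ± 0.49 in B16F10 and -1.85 ± 0.49 in NIH3T3.

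In B16F10 the brightest probe sets of Spred1, Spry2, Dusp4 and Dusp6 lay below the control in all clones by only 0.30 to 0.40 on the log2 scale, while Etv5 and Ccnd1 differed by -2.62 and -1.65. These 4 small values kept their sign under 14 of 14 alternatives each. As all clones lay below the control, only alternatives that rescale the arrays could have turned them, so nothing is read from this. Directions are relative to the average probe set. With the arrays scaled instead on the poly-A spikes, RNA added before labelling, the median of all tested probe sets was -0.79 in B16F10, in place of 0.02, and 0.40 in NIH3T3, in place of -0.07. Against the control of the line, the median spike was higher by 0.41 to 0.61 (log2) in B16F10 clones and differed by -0.55 to -0.26 in NIH3T3 PGC7 arrays, and its part in the member values was not tested.

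Levels in the 2 lines are described from the control arrays, 1 a line, with no test. A mean over the PGC7 and control groups holds part of the difference in change for which the set was picked, and the control signals enter those changes too, so neither is independent of the choice. The sample titles give no processing batch, so any batch that differed between the lines could not be told apart from the line. Of the 16 member probe sets that passed the filter in both lines, 6 were lower in the B16F10 control than in the NIH3T3 control, where 53.7% of the 18639 such probe sets were. The median log2 difference was 0.21 for the 16 and -0.11 for all of these, and 1.51 and 1.32 with the signals as deposited, where all 16 were higher in the B16F10 control.

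Ccnd1 at 1417420_at had a signal of 3707 in the B16F10 control and 5252 in the NIH3T3 control, a log2 difference of -0.50, and it differed by -0.95 at 1448698_at and -1.22 at 1417419_at. With the signals as deposited these values turned to 0.98, 0.54 and 0.27, so the order of the 2 controls rests on the scaling. The mean over both groups of a line, PGC7 arrays included, differed by -1.99, -2.55 and -2.46, and by -0.44, -0.99 and -0.91 as deposited. Etv5 at 1428142_at had 784 in the B16F10 control and 644 in the NIH3T3 control (0.28, and 1.74 as deposited). Its mean over both groups differed by -1.98, and by -0.45 as deposited. At the other Etv5 probe sets, dim in B16F10, the controls differed by -1.58 (1450082_s_at) and -2.57 (1420998_at). Dusp4 had 1897 in the B16F10 control and 89.9 in the NIH3T3 control (4.27), although the 3 NIH3T3 PGC7 arrays were above all 4 B16F10 arrays. Dusp6 had 3138 in the B16F10 control and 1069.9 in the NIH3T3 control (1.54). Both of these differences kept their sign with the signals as deposited (5.54 and 3.01).

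Spry2 had 601 in the B16F10 control and 587 in the NIH3T3 control at 1436584_at (0.03), and Spry1 had 332 in the B16F10 control and 432 in the NIH3T3 control (-0.37, and 1.07 as deposited). The 6 Spred1 probe sets differed between the controls by -0.58 to 0.72. Their means over both groups differed by -1.36 to -0.35, and that of Spry2 by -0.63, and these turned with the signals as deposited (0.13 to 1.19 for Spred1 and 0.89 for Spry2). All 10 probe sets that passed the filter through NIH3T3 alone were lower in the B16F10 control, as their selection makes likely. For Lrig1 (1449893_a_at) the B16F10 arrays had 0.684 to 24.5, where NIH3T3 arrays had 775 to 2959.

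**Figure D3:**
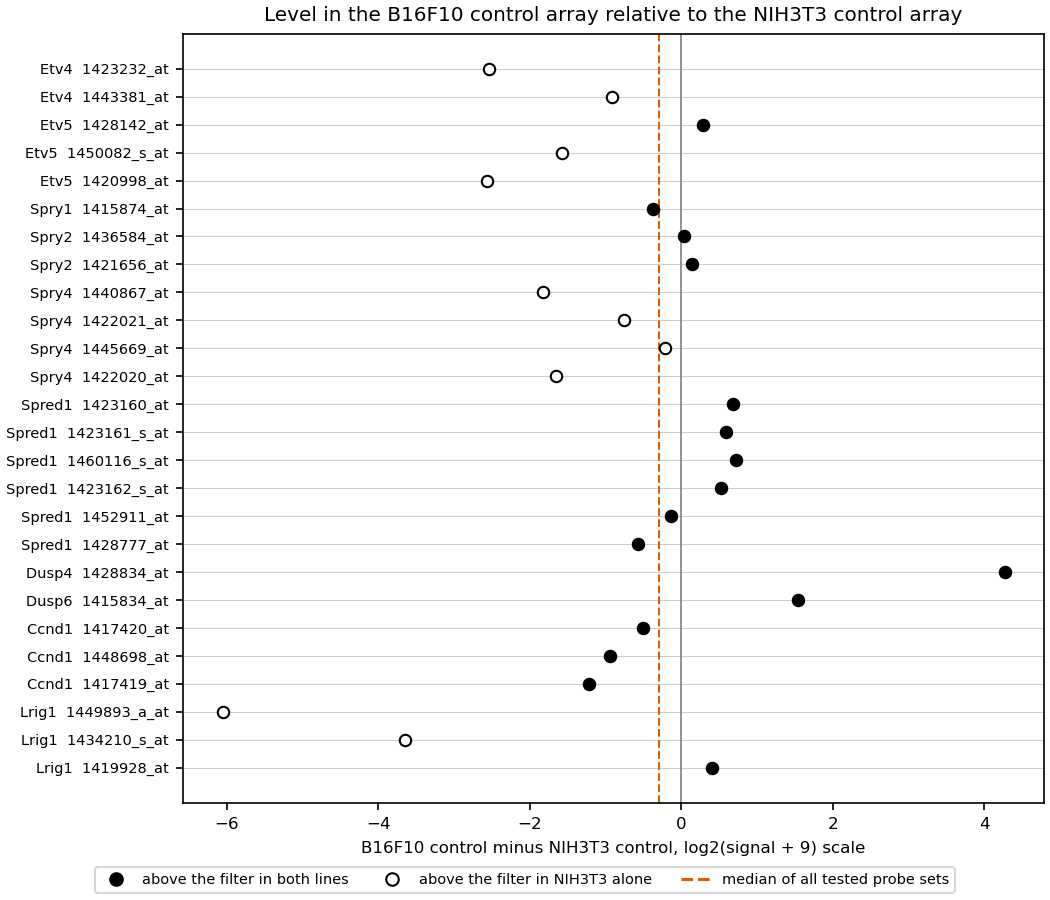
B16F10 control minus NIH3T3 control (log2(signal + 9) scale, 1 array each, no error) for the 26 tested probe sets, filled for the 16 above the filter in both lines and open for the 10 above it in NIH3T3 alone. The dashed line marks the median of all tested probe sets, -0.29, and the point furthest right is Dusp4 at 4.27, while among filled points the 3 of Ccnd1 lie between -1.22 and -0.50.

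The cloned NIH3T3 cultures were set against the uncloned one, a comparison not used to pick the set. None of the 26 member probe sets was called by limma (0 of 26, with 5 at an unadjusted p under 0.05), where 8.61% of all tested probe sets were. The lone uncloned array was assumed to vary like the other groups. The widest difference was that of Spry1 (-1.05 ± 0.37, adjusted p = 0.125), followed by 0.72 for Spry2 at 1421656_at and 0.70 for Spry4 at 1422020_at. Dusp4 had 0.35 ± 0.10 (adjusted p = 0.0815), Dusp6 -0.21 ± 0.11 (adjusted p = 0.300) and Etv5 -0.07 ± 0.27 at 1428142_at (adjusted p = 0.924). With the signals as deposited 4 of the 26 were called. In that fit 4058 probe sets were called in all, against 2173 with the arrays scaled, so nothing is read from the 4.

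Among the other genes of the pathway, 5 lists with 113 entries were used, of which 103 had a probe set with 1 symbol here and 95 were tested, each gene by its brightest tested probe set. By genes, 1.18% of all 11643 tested were called higher and 0.386% lower in B16F10, and 7.87% and 7.35% in NIH3T3. Beyond the clones, no label says that cultures were grown apart, so the p-values rest on a spread between these samples that may be technical.

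Of 22 tested other ERK output genes, 1 rose and 0 fell in B16F10, and 9 rose and 2 fell in NIH3T3. Their median change was -0.08 in B16F10 and 0.85 in NIH3T3. The 2 that fell in NIH3T3 were Dusp1 and Spry3, a relative of Spry1. Dusp1 changed by -1.71 ± 0.20 (limma adjusted p = 0.00129, signals of 320 to 461 against 1293). In B16F10 all Dusp1 signals of clones lay above the control (1755 to 1890 against 1076, 0.75 ± 0.20, adjusted p = 0.121). Spry3 changed in NIH3T3 by -1.72 ± 0.41 (limma adjusted p = 0.0282, 118 to 166 against 498), and was dim in B16F10 (1.20 to 2.89 against 14.4). In NIH3T3 the epidermal growth factor family ligand gene Ereg rose by 3.16 ± 0.30 (1419431_at, adjusted p = 0.000553), with signals of 3820.4, 4191 and 5539 in clone 1, clone 2 and the uncloned culture, against 489 in the control. Lif, coding for a cytokine, rose by 2.38 ± 0.48 (adjusted p = 0.0149, signals of 182 to 297 against 37.8). Phlda1, an ERK target, rose by 2.04 ± 0.14 (adjusted p = 0.000140, 7964 to 9547 against 2168), and Spred3, a relative of Spred1, by 2.02 ± 0.32 (adjusted p = 0.00523, 504 to 655 against 131).

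The called gene in B16F10 was Egr1, an immediate early transcription factor gene induced through ERK and serum response factor. It had 3300.1, 3032 and 2498 in clones 1, 2 and 3, against 303 in the control of B16F10, and 2607, 3195 and 1958 in clone 1, clone 2 and the uncloned culture, against 4174 in the control of NIH3T3. Egr1 rose in B16F10 (3.23 ± 0.25, adjusted p = 0.00165) and was not called in NIH3T3 (-0.72 ± 0.25, adjusted p = 0.102). The difference between the lines was 3.95 ± 0.36 (adjusted p = 0.00126). In B16F10 this ERK-inducible gene and the members Etv5 and Ccnd1 stood on opposite sides of the control. The other output genes were divided there, with none of the following called. All clones lay above the control for Fos (1.07) and Ier3 (1.05), for instance, and below it for Hbegf (-0.96) and Plaur (-0.93).

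Of 21 tested other inhibitors of the cascade, 0 were called in B16F10 (median change 0.03), and 9 rose and 1 fell in NIH3T3 (median 0.58). Dusp9, coding for a cytoplasmic ERK phosphatase, rose in NIH3T3 by 3.27 ± 0.36 (adjusted p = 0.000996, signals of 477 to 544 against 43.9). Errfi1, an inhibitor of ErbB receptors, rose by 2.47 ± 0.43 (adjusted p = 0.00831, 3766 to 9789.6 against 985), and the Ras GTPase activating gene Rasa2 by 1.85 ± 0.17 (adjusted p = 0.000521, 2103 to 2795 against 668). Il17rd, coding for the inhibitor of fibroblast growth factor signalling also called Sef, fell by 3.57 on the log2 scale (adjusted p = 0.00597), with 25.7, 40.8 and 73.7 in clone 1, clone 2 and the uncloned culture, against 611 in the control.

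The cascade itself, from adaptors to ERK and its kinases, had 22 tested genes of 30 listed. In B16F10 0 were called (limma, median change 0.16), and in NIH3T3 3 rose and 2 fell (median -0.02). The adaptor gene Gab2 rose in NIH3T3 by 1.34 ± 0.18 (adjusted p = 0.00265) and the MEK gene Map2k1 by 0.94 ± 0.17 (adjusted p = 0.00898). The Raf kinase gene Braf fell by 0.82 on the log2 scale (adjusted p = 0.0179) and the phosphatase gene Ptpn11 by 0.58 on the log2 scale (adjusted p = 0.0436), which was called in 5 of 14 alternatives.

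Of 15 tested receptors that feed the cascade, 1 rose and 0 fell in B16F10 (median -0.05), and 1 rose and 1 fell in NIH3T3 (median -0.12). Met, the hepatocyte growth factor receptor gene, rose in B16F10 by 1.04 ± 0.16 (adjusted p = 0.0228), with 6565, 6231 and 7616 in clones 1, 2 and 3, against 3300.2 in the control, a call that held in 7 of 14 alternatives. In NIH3T3 Erbb3 rose by 1.27 ± 0.26 (adjusted p = 0.0170, signals of 86.8 to 143 against 39.5), and the insulin-like growth factor receptor gene Igf1r fell by 0.73 on the log2 scale (adjusted p = 0.0432), called in 4 of 14 alternatives.

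Of 15 tested partners and opponents of cyclin D1, 0 were called in B16F10 (median 0.01), and 2 rose and 2 fell in NIH3T3 (median -0.03). The kinase gene Cdk6 rose in NIH3T3 by 0.94 ± 0.19 (adjusted p = 0.0150) and the kinase inhibitor gene Cdkn1a by 0.81 ± 0.15 (adjusted p = 0.00990). A second inhibitor gene, Cdkn1b, fell by 1.16 on the log2 scale (adjusted p = 0.00433) with 740.0 to 994 against 1964 in NIH3T3. Cyclin D2, coded by Ccnd2, fell by 0.77 on the log2 scale in NIH3T3 (adjusted p = 0.00305), with 5006, 4930.3 and 4787 in clone 1, clone 2 and the uncloned culture, against 8397 in the control, while Ccnd1 was higher there. In B16F10 Ccnd2 had 11057, 12683 and 11677 in clones 1, 2 and 3, against 9806 in the control (0.27 ± 0.11, adjusted p = 0.294), all clones above it, while Ccnd1 was lower.

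**Figure D4:**
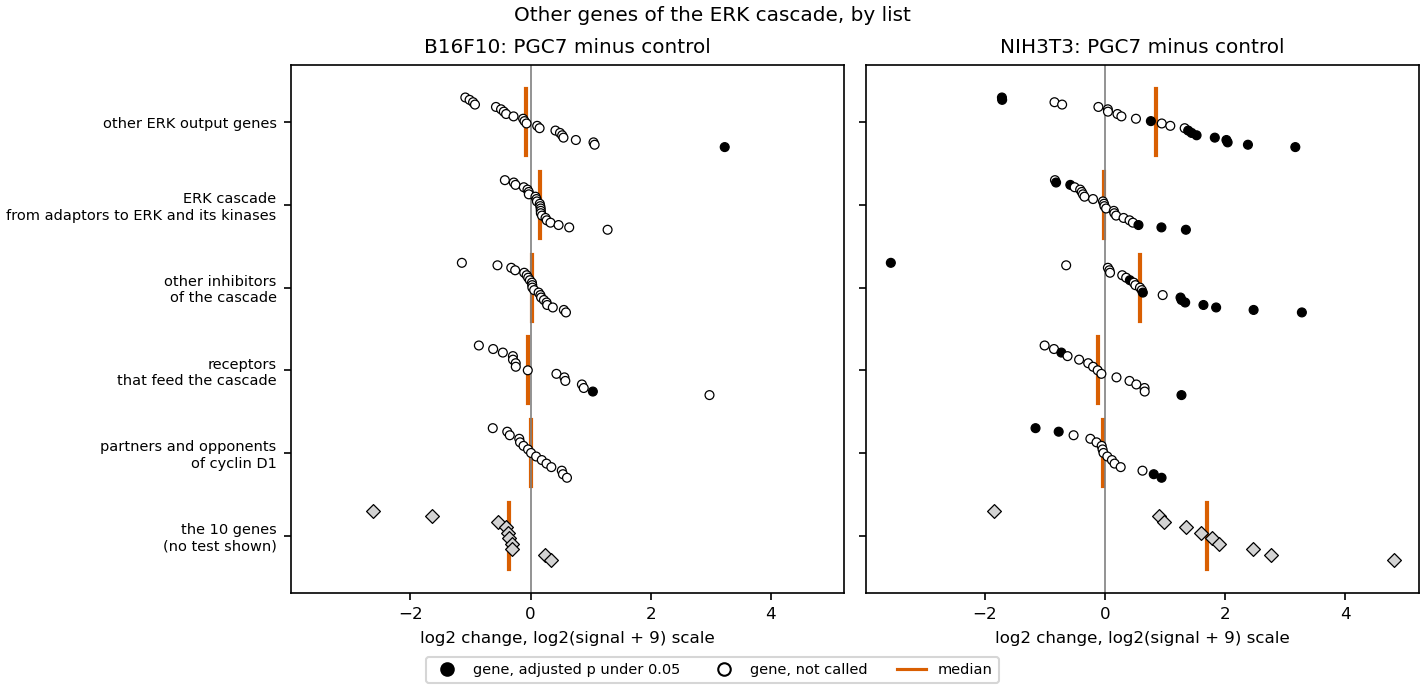
Change in PGC7 arrays from the control (log2(signal + 9) scale), B16F10 left and NIH3T3 right, for each tested gene of 5 lists and for the 10 genes of the set by their brightest probe set, with filled points at an adjusted p under 0.05 and a bar at the median. In NIH3T3 the medians of the other output genes (0.85) and other inhibitors (0.58) lie right of 0, and in B16F10 Egr1 is the filled point furthest right.

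Levels of the list genes in the 2 lines were tested over all 8 arrays, as the mean of the PGC7 and control groups in B16F10 minus the same in NIH3T3, and counted over genes whose probe set passed the filter in both lines. Of 16 such output genes, 5 were called higher in B16F10 and 9 lower, where 36.8% and 32.9% of the 9352 such genes were. The counts were 10 and 8 of 22 for the cascade, 5 and 11 of 18 for the other inhibitors, 3 and 4 of 8 for the receptors, and 8 and 5 of 15 for the partners and opponents of cyclin D1. The GTPase gene Rras was lower (-2.60, adjusted p = 5.46e-06) and the ERK-activated kinase gene Rps6ka3 higher (2.13, adjusted p = 6.46e-07). Dusp14 (-3.85, adjusted p = 1.13e-06), Cdk6 (-1.67, adjusted p = 8.12e-06) and Cdkn1a (-1.62, adjusted p = 2.28e-06) were lower in B16F10. With the signals as deposited Cdk6 (-0.13, adjusted p = 0.55) and Cdkn1a (-0.07, adjusted p = 0.64) were not called. Fosl1, an AP-1 factor gene, Ereg, Dusp10 and the receptor genes Axl and Pdgfra passed the filter through NIH3T3 alone, so their differences are a description (-8.01 for Fosl1, -7.20 for Ereg, -3.89 for Dusp10, -7.62 for Axl and -7.26 for Pdgfra). Fosl1 and Ereg had signals of 1.09 to 8.23 and 0.738 to 2.18 on all B16F10 arrays.

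In cloned against uncloned NIH3T3 cultures, 8 of the 95 list genes were called higher and 5 lower, where 6.08% and 4.91% of all genes were. The inhibitor gene Errfi1 was lower in the clones (-1.25 ± 0.15, adjusted p = 0.00412), as were the cell death gene Bcl2l11 (-1.25) and the GTPase gene Rras2 (-1.69). Cic, coding for a repressor of Etv4 and Etv5 that ERK inactivates, was higher (0.99 ± 0.12, adjusted p = 0.00455), with 2325, 2629 and 1241 in clone 1, clone 2 and the uncloned culture, against 1628 in the control. Higher too were Elk1 (1.63), Dusp3 (0.92), Fgfr2 (1.53), Kit (1.77, dim at 27.1 and 27.2 in the clones and 1.57 in the uncloned culture), Ccne1 (0.73) and Ccne2 (0.65). Of 13 alternatives the call was kept in 1 for Kit (values of 0.82 to 3.45), in 4 for Ccne2 (0.33 to 0.89) and in 9 for Elk1, and in 10 to 12 for the others named here except Rras2, which kept it in all 13.

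Genes whose pattern came closest to that of Etv5, Ccnd1 and Lrig1 were found by the root mean square difference of the 6 log2 changes of PGC7 arrays from the control of their line. For Etv5 (1428142_at) these were Lrig1 (1434210_s_at, 0.58), Tead4, a TEAD transcription factor gene (1460683_at, 0.78), and Ccnd1 (1448698_at, 0.81). Tead4 had 3.20 to 6.66 against 45.0 in B16F10 and 149 to 181 against 19.0 in NIH3T3, dim in B16F10. For Ccnd1 (1417420_at) they were the kinase gene Prkg2 (1435162_at, 0.35), Odc1 (1427364_a_at, 0.41) and Fxyd5 (1418296_at, 0.43).

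Prkg2 had 156, 178 and 104 in clones 1, 2 and 3, against 343 in the control of B16F10, and 7914, 7468 and 5982 in clone 1, clone 2 and the uncloned culture, against 2905 in the control of NIH3T3. Odc1 had 831, 991 and 845 in clones 1, 2 and 3, against 2016 in the control of B16F10, and 1259, 1359 and 1657 in clone 1, clone 2 and the uncloned culture, against 635 in the control of NIH3T3. Fxyd5 had 145 to 206 against 488 in B16F10 and 2471 to 5148 against 1321 in NIH3T3. Like Ccnd1, all 3 lay below the control in every B16F10 clone and above it in every NIH3T3 PGC7 array. They were selected on these same changes, so nothing is read from this. For Lrig1 (1449893_a_at) the closest were Trp53i11 (1436919_at, 0.30), Stom (1419099_x_at, 0.33) and Gapdhs (1449974_at, 0.36), which in B16F10 had signals of 2.76 to 58.2.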

How the data were processed

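RNA of 8 cell cultures was hybridized to 1 Affymetrix array each. The deposited values are linear intensity signals of 45101 probe sets, made with MAS5 per the submitters' processing notes, on arrays whose number limits the precision. As deposited, the 2% trimmed mean was 500 on the 4 B16F10 arrays and 143 to 189 on the 4 NIH3T3 arrays, so each array was scaled to a trimmed mean of 500. A pseudocount of 9, the rounded 25th percentile, was added before log2. After removal of 64 control probe sets and 19801 dim ones (mean log2 under the median of all values, 49.3 as a signal, in both lines), 25236 were tested with limma 3.58.1 in R 4.3.3, with group means, a shared variance, an intensity trend and Benjamini-Hochberg adjustment. The procedure was tested on simulated data. Probe sets with 1 gene symbol (34958) were named, and 932 with several and 9211 with none were not.

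All member probe sets are accounted for. In each of 5 pathway lists up to 4 called genes with the widest change are named for each line, and up to 2 for levels between lines and for cloned against uncloned cultures. For Etv5, Ccnd1 and Lrig1 the 3 genes of the most similar pattern are named. Genes outside these rules (Dppa3, Dusp1, Spry3, Fos, Ier3, Hbegf, Plaur and the probe sets called in opposite directions) were named after their values were seen. Levels averaged over a line hold part of the changes on which the members were picked, so no p-value is given for member levels. The members and lists were chosen with earlier results of these data known. Alternatives covered the pseudocount, filter, scaling, trend and arrays in the fit.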

Additional observations from a re-analysis of the deposited data

Results flagged for a closer look

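For 21 member probe sets every PGC7 array of one line moved opposite to every PGC7 array of the other. No test of this difference is given as a result, because the genes were picked for it. All values are B16F10 minus NIH3T3 in the log2 change from the control. Etv5 had -4.52 at 1428142_at, -4.38 at 1450082_s_at and -3.26 at 1420998_at, both of the last with B16F10 clones under the median signal. Etv4 had -3.13 at 1423232_at, dim on every B16F10 array. Ccnd1 had -2.99 at 1417420_at, -3.20 at 1448698_at and -2.49 at 1417419_at. Lrig1 had -3.92 at 1434210_s_at, dim in B16F10. Dusp4 had -5.11 and Dusp6 -2.76. Spred1 had -2.18 at 1423160_at, -1.86 at 1423161_s_at, -2.18 at 1460116_s_at, -1.50 at 1452911_at and -1.56 at 1428777_at. Spry2 had -1.33 at 1436584_at. Spry4, dim in B16F10, had -1.44 at 1440867_at, -2.25 at 1422021_at, -2.24 at 1445669_at and -1.28 at 1422020_at. Spry1 had 2.09, the one value above 0.

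Limma's test of the difference between the lines passed the threshold for 1737 of all 25236 tested probe sets. Among them were those of 11 pathway genes named by rule for a called change in B16F10 or NIH3T3. These genes were named for a called change in 1 line, which favours such a difference, so nothing is read from this count. A negative value means a lower change from the control in B16F10 than in NIH3T3, not a lower level. The difference was negative for Rasa2 (-1.71, adjusted p = 0.00695) and Phlda1 (-1.62, adjusted p = 0.00379). It was also negative for Dusp9 (-4.42), Ereg (-3.05), Lif (-2.95) and Spred3 (-1.87). Their B16F10 signals were dim, so these values are a description. The signals were 21.6 to 81.4 for Dusp9, 0.738 to 2.18 for Ereg, 8.23 to 26.3 for Lif and 26.0 to 35.0 for Spred3. The difference was positive for Egr1 (3.95, adjusted p = 0.00126), Cdkn1b (1.50, adjusted p = 0.0115), Met (1.47, adjusted p = 0.00879), Ccnd2 (1.04, adjusted p = 0.00768) and Braf (0.99, adjusted p = 0.0474). Dusp1, named outside the rule after its values were seen, had 2.47 (limma adjusted p = 0.00306). No group had the 4 arrays needed to look for outlying arrays.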

How the results depend on the processing

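The number of calls over all probe sets depended on the processing, and the causes were not tested except where stated. In B16F10 it was 300, and 177 with no filter on dim probe sets, 199 after quantile normalization, 6530 with poly-A scaling, 70 without the intensity trend, 2196 in the 4 arrays of the line alone and 59 to 1814 with 1 PGC7 array left out (1814 without the uncloned NIH3T3 culture, 59 without B16F10 clone 3). In NIH3T3 it was 3229, and 2127 without the trend, 1151 in the line alone and 2001 to 6124 with 1 array left out (6124 without the uncloned culture, 2001 without B16F10 clone 1). For the difference between lines it was 1737, and 1045 with the signals as deposited, 9430 with poly-A scaling, 934 without the trend and 739 to 4407 with 1 array left out. For cloned against uncloned cultures it was 2173, and 1200 with no filter, 4058 as deposited, 384 with poly-A scaling, 287 without the trend and 988 to 1989 with 1 array left out. For levels it was 18047 (16846 to 20968). Of the 26 member probe sets, 5 were called in B16F10, and 15 with poly-A scaling, 2 without the trend and 3 to 5 with 1 array left out (3 without clone 1 or clone 3). For cloned against uncloned cultures 0 were called, and 4 as deposited and 0 to 1 with 1 array left out. In NIH3T3 18 were called, and 14 to 19 under the alternatives. The set was picked on these contrasts with the control.

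The share of calls that were higher was 77.7% in B16F10 and 2.45% with poly-A scaling. In NIH3T3 it was 50.6%, against 36.7% as deposited and 81.7% with poly-A scaling. For the difference it was 55.2%, against 71.0% and 3.24%. For levels it was 41.3%, against 54.2% after quantile normalization, 85.7% as deposited and 70.7% with poly-A scaling. For cloned against uncloned cultures it was 57.5%, against 9.78% as deposited and 79.2% with poly-A scaling. Means over both groups of a line, given for the members as a description, turned between the lines with the signals as deposited for Spry2 at 1436584_at (0.89) and 1421656_at (1.11) and for Spred1 at 1423160_at (1.13), 1423161_s_at (1.19), 1460116_s_at (1.13), 1423162_s_at (1.00), 1452911_at (0.62) and 1428777_at (0.13), and with poly-A scaling for Spry2 at 1436584_at (0.19) and Spred1 at 1423160_at (0.41), 1423161_s_at (0.48) and 1423162_s_at (0.32). No paired analysis was possible because the controls carry no number and clones of different lines share only a number, so no replicate block could be fitted.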
